A study of Mus musculus with 6 samples.

Results

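Long noncoding RNAs of the adult mouse hippocampus were followed in mice that lack CBP in forebrain excitatory neurons (CBP-ifKO) and in their control littermates (Control). They were taken by name from the deposited gene table: Gm42864, 2610507I01Rik, Meg3, Miat, Malat1, Neat1, Rian, Mirg, Snhg11 and Snhg14, which are 10 of the 55471 genes listed. All 10 passed the filter on low counts that left 17981 genes for testing. Gm42864, with 31 to 40 counts in Control and 3 to 13 in CBP-ifKO, passed through its Control libraries. 2610507I01Rik, with 4 to 13 counts in Control and 29 to 50 in CBP-ifKO, passed only with its CBP-ifKO libraries. Both thus entered the ranking through the group where they were high. The names were chosen with results of the same comparison known. Gm42864 had the lowest log2 fold change of all 17981 genes and 2610507I01Rik ranked 3 from the highest, so that the differences given below for the 10 genes are a description, with no test.

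CBP, the CREB-binding protein encoded by Crebbp, is a histone acetyltransferase and a coactivator of transcription. In CBP-ifKOs the floxed Crebbp gene is recombined by creERT2, a Cre recombinase that tamoxifen activates and that the Camk2a promoter restricts to excitatory neurons of the forebrain. Both groups were C57BL/6 mice of 3 to 6 months, given tamoxifen 5 times by the intragastric route at 20 mg/mL in corn oil, and each group comprised 3 libraries of hippocampal total RNA. The treatment notes describe the controls as littermates without the driver, whereas a label of the Control samples names Camk2a_creERT2. Esr1, part of which is built into creERT2, reached 5.65 to 6.29 CPM (reads of a gene after libraries are brought to equal size) in Control and 63.6 to 69.4 CPM in CBP-ifKO. The labels do not say how many mice each library holds. The study's methods describe CBP-ifKO experiments on pools of 3 females, on single males and on single females, without a link to these labels. Xist, an RNA of the inactive X chromosome, was abundant in every library (values at the end), so each held RNA of females. The p-values measure the spread between libraries, whether these are pools or single mice.

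The libraries held 10199008 to 14950257 counts. The targeted gene followed the labels: Crebbp was at 156.4 to 208.6 CPM in controls and at 87.2 to 108.6 CPM in CBP-ifKOs. By the design of the driver, glia, interneurons and vessels keep the gene, and in whole tissue fewer cells of a type and less RNA per cell cannot be told apart. Control replicate 2 and CBP-ifKO replicate 2 had the steepest trends of expression on GC content, with slopes of 0.14 and -0.12 on the log2 scale per 10 percentage points, against -0.03 to 0.04 in the other 4 libraries.

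Long noncoding RNAs are transcripts that are not translated, and many of those abundant in brain stay in the nucleus. Malat1 and Neat1 are kept in nuclear speckles and paraspeckles, which hold splicing factors and RNA-binding proteins, and Miat forms nuclear domains of its own in neurons. Meg3, Rian and Mirg are read from the maternal chromosome of the imprinted Dlk1-Dio3 domain and carry small RNAs in their introns and exons. Snhg11 and Snhg14 are host genes of small nucleolar RNAs, and the paternal Snhg14 transcript runs antisense into Ube3a. No function is given here for Gm42864 and 2610507I01Rik.

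Gm42864 (ENSMUSG00000105152) is annotated as a lincRNA with 2 exons at chr5:112649367-112652112 on the plus strand of GRCm38. Its exons, 1436 bases in all, are shared with no other annotated gene. The first exon is shown because this RNA had the lowest fold change of the series. It is the plus strand of chr5:112649367-112649586, read from the GENCODE M21 transcript:
Gm42864 first exon: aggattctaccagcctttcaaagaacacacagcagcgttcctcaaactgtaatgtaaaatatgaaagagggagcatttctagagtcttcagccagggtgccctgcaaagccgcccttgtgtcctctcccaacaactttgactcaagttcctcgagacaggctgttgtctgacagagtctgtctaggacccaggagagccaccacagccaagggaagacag

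Reads of Gm42864 were scarce in both genotypes. Control replicates 1 to 3 held 40, 31 and 35 counts, and CBP-ifKO replicates 1 to 3 held 3, 13 and 7. Scaled to library size, these were 3.76, 2.66 and 3.47 CPM in controls and 0.29, 0.85 and 0.58 CPM in CBP-ifKOs. Every CBP-ifKO library lay below every Control library, and the mean of 0.57 ± 0.28 CPM was 17.4% of the Control mean of 3.30 ± 0.57 CPM (SD, n = 3). The log2 fold change (log2FC, CBP-ifKO minus Control) was -2.42 (SE 0.33, 95% interval -3.11 to -1.72), a 5.34-fold lower level. Leaving out 1 library at a time kept it between -2.85 and -2.16. It was -2.98 without Control replicate 2 and CBP-ifKO replicate 2, a setting chosen after the data had been seen.

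2610507I01Rik (ENSMUSG00000085882) is annotated as a processed transcript at chr11:59199836-59202385 on the minus strand, with 1360 exon bases that no other annotated gene shares. Its start faces that of Mrpl55, a gene for a protein of the mitochondrial ribosome, across 100 bases. Control replicates 1 to 3 held 4, 12 and 13 counts, and CBP-ifKO replicates 1 to 3 held 29, 50 and 32. In CPM these were 0.38, 1.03 and 1.29 in Control and 2.81, 3.29 and 2.63 in CBP-ifKO, again without overlap. The mean was 2.91 ± 0.34 CPM in CBP-ifKO and 0.90 ± 0.47 CPM in Control (SD, n = 3), with a log2FC of 1.70 (SE 0.33, 95% interval 1.01 to 2.39) or 3.24-fold. Control replicate 1, with 4 counts, lay farthest from the others of its group. The estimate ran from 1.34 to 2.02 when 1 library at a time was left out.

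CREB, the factor that gives CBP its name, binds the cAMP response element TGACGTCA or its half-site TGACG, so these letters were searched on both strands in the promoter windows of the RefSeq table for GRCm38.p6. The windows run from 250 bases before a RefSeq start to 50 after it, and 8 of the 10 genes had at least 1, which made 9 windows in all. RefSeq starts need not be those of the coordinates given here. For 2610507I01Rik, Meg3, Malat1, Rian and Snhg11 a RefSeq start lay within 75 bases of the GENCODE M21 start, and the other Meg3 window starts 4397 bases inside the gene. The RefSeq start lay 447 bases inside the gene for Miat, 5217 bases inside for Mirg and 474.4 kb upstream for Snhg14, so those windows do not cover the starts given here. The whole element was found in the window of Meg3, 57 bases before its RefSeq start, and in 588 of all 32851 windows (1.79%). The half-site, as TGACG or CGTCA and including those inside a whole element, was found for 3 of the 8 genes and in 6837 of all windows (20.8%). The E-box CACGTG was in none of the 9 windows and in 7.15% of all. The 3 windows with a match are shown, with the matched letters in capitals. They lie at chr11:59202382-59202681 (minus strand), chr12:109540746-109541045 (plus) and chr19:5802623-5802922 (minus). The window of 2610507I01Rik also covers the annotated start of Mrpl55 (chr11:59202486, plus strand), so its letters are not particular to 2610507I01Rik. A match says only that the letters are there.
2610507I01Rik promoter: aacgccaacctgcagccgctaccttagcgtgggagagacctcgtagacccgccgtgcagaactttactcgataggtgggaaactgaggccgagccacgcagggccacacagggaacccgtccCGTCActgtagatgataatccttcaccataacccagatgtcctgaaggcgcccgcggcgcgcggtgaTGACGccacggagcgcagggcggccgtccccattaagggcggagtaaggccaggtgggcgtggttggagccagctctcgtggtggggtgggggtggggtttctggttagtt
Meg3 promoter: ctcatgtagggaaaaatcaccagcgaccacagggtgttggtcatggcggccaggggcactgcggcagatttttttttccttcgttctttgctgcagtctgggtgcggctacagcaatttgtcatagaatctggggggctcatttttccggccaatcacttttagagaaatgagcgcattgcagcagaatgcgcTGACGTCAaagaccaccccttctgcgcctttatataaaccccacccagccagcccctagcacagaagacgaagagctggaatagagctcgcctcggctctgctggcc
Malat1 promoter: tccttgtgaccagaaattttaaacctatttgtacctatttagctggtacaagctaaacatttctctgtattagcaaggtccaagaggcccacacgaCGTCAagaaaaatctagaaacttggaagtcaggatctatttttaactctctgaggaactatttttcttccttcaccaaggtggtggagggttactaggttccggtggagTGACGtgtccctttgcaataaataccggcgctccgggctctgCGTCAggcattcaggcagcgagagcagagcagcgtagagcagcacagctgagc

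For the 3 genes with these letters, the log2 fold changes were 1.70 for 2610507I01Rik, 0.09 for Malat1 and -0.10 for Meg3. The intervals of Malat1 (-0.01 to 0.19) and Meg3 (-0.22 to 0.02) cover both directions, so no difference in direction is shown for them. 2610507I01Rik was chosen with this comparison known, and its window also covers the start of Mrpl55. Whether the letters bear on these levels was not tested.

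Levels of different genes were compared per kilobase of exon, with the exon lengths of the deposited table. In Control, Malat1 stood first with 2672 ± 68.7 CPM per kb (SD, n = 3), and Meg3 followed with 166 ± 6.96 CPM per kb. Snhg11 reached 113 ± 22.3, Miat 43.1 ± 3.53, Rian 30.5 ± 1.12 and Snhg14 26.3 ± 1.54 CPM per kb. Mirg, Neat1, Gm42864 and 2610507I01Rik came last, at 10.04 ± 0.815, 4.61 ± 0.095, 2.30 ± 0.395 and 0.661 ± 0.346 CPM per kb. No neighbors in this order overlapped in their Control libraries.

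The order in CBP-ifKOs differed at its lower end, where 2610507I01Rik (2.14 ± 0.248 CPM per kb) stood above Gm42864 (0.400 ± 0.196 CPM per kb). Rian and Snhg14 overlapped there, with 28.5 ± 0.961 and 27.8 ± 1.01 CPM per kb. The place of Rian depends on its length: the deposited table gives 31981 exon bases and GENCODE M21 gives 18234, with which Rian would stand at 53.6 ± 1.96 CPM per kb in Control, above Miat. Among the 17981 genes tested, Malat1 ranked 2 by CPM and 9 by CPM per kb in Control, whereas Neat1 ranked 2336 and 8073.

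**Figure D1:**
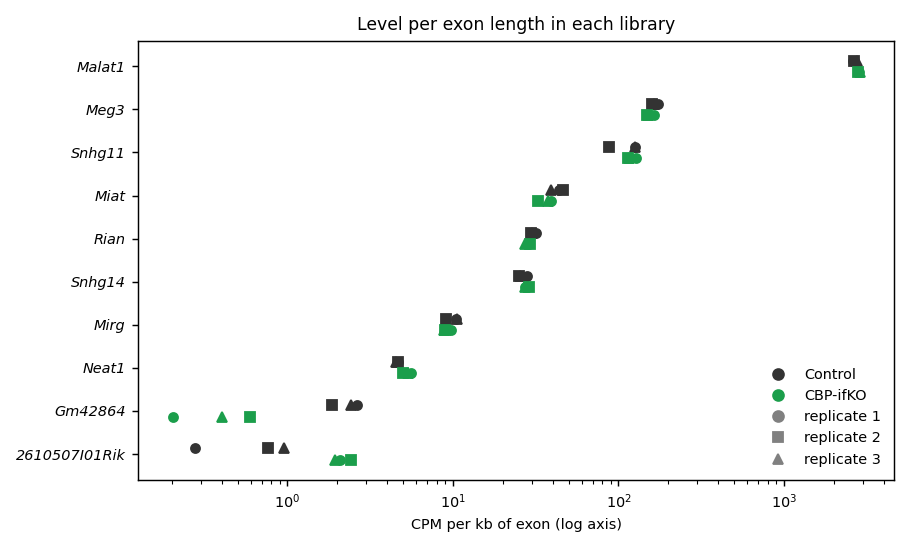
Level of the 10 long noncoding RNAs in CPM per kb of exon on a log axis, with 1 symbol per library (black, Control; green, CBP-ifKO; the shape gives the replicate number). Malat1 lies far above the others in all 6 libraries, and Gm42864 and 2610507I01Rik exchange places between the genotypes.

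Malat1 (ENSMUSG00000092341, chr19:5795690-5802672, minus strand) is annotated as a single exon block of 6983 bases and is known for its place in nuclear speckles. Control replicates 1 to 3 reached 18247, 18541 and 19185 CPM and CBP-ifKO replicates 1 to 3 reached 19788, 19678 and 20114 CPM. All 3 CBP-ifKO libraries were above all Control libraries, by a log2 fold change of 0.09 (SE 0.05, 95% interval -0.01 to 0.19). Its Control libraries varied by 2.57%, expressed as the coefficient of variation, where the median gene tested varied by 9.64%.

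Because of its size, Malat1 weighed on the share of the sequencing taken up by the 10 genes. They held 2.41% to 2.46% of all counts in Control and 2.6% to 2.63% in CBP-ifKO. Malat1 alone held 1.83% ± 0.02 in Control and 2.01% ± 0.0173 in CBP-ifKO (SD, n = 3). Shares are taken of library totals, without the further scaling used for CPM. With totals only, the Malat1 log2 fold change was 0.14, where the median over all genes was 0.0425. It was 0.09 in the main fit and 0.06 with offsets for GC content and length. The other 9 genes together held 0.576% to 0.649% and 0.589% to 0.631%, ranges that overlap. Mitochondrial genes took 6.95% to 8.73% of counts, and without them the share of the 10 genes was 2.65% ± 0.0351 in Control and 2.83% ± 0.0379 in CBP-ifKO.

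Neat1 (ENSMUSG00000092274, chr19:5824708-5845478, minus strand), the scaffold of paraspeckles, starts beyond Malat1, with 22.0 kb between the genes. Its level was 97.2, 96.4 and 93.4 CPM in controls and 115.5, 103.0 and 110.8 CPM in CBP-ifKOs. The groups did not overlap, and CBP-ifKOs were higher by 0.20 on the log2 scale (SE 0.06, 95% interval 0.06 to 0.33), which is 1.15-fold. Without replicate 2 of both groups the difference was 0.25. Neat1 was the steadiest of the 10 genes among controls, with a coefficient of variation of 2.06%.

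Miat (ENSMUSG00000097767, chr5:112213228-112229395, minus strand) lies 420.0 kb from Gm42864. It reached 405.7, 430.8 and 365.8 CPM in controls and 363.2, 303.1 and 350.2 CPM in CBP-ifKOs. Although the highest CBP-ifKO library was just below the lowest Control library, the means differed, 338.9 ± 31.6 against 400.8 ± 32.8 CPM (SD, n = 3), for a log2 fold change of -0.24 (SE 0.07, 95% interval -0.40 to -0.09). Without replicate 2 of both groups, the libraries with the steep GC trends, it was -0.11, and with offsets for GC content and length fitted over all 6 libraries it was -0.14. Miat has the highest GC content of the 10 genes, 55.1%. It shares 24.3% of its exon bases with Gm26953 on the other strand, which was at 0.394 to 1.03 CPM in every library, and the strand setting of the counting was not stated.

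Meg3 (ENSMUSG00000021268, chr12:109541001-109571726, plus strand) is the first of the maternal noncoding RNAs of the Dlk1-Dio3 domain. It was at 3134, 2888 and 2966 CPM in controls and 2966, 2695 and 2739 CPM in CBP-ifKOs. CBP-ifKO replicate 1 fell among the controls, and the log2 fold change was -0.10 (SE 0.06, 95% interval -0.22 to 0.02). By CPM in Control it ranked 8 of the 17981 genes tested, and by CPM per kb it ranked 79.

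Rian (ENSMUSG00000097451, chr12:109603940-109661716, plus strand) begins 32.2 kb past the end of Meg3 and hosts small nucleolar RNAs. It was at 1017, 948 and 965 CPM in controls and 927, 931 and 876 CPM in CBP-ifKOs. The groups were separate but close, with a log2 fold change of -0.10 (SE 0.05, 95% interval -0.22 to 0.02). Mirg (ENSMUSG00000097391, chr12:109729764-109749460, plus strand), a host of microRNAs, begins 68.0 kb past the end of Rian. Mirg was at 75.7, 66.4 and 77.5 CPM in controls and 70.6, 65.7 and 64.1 CPM in CBP-ifKOs, where the groups overlapped, and its log2 fold change was -0.13 (SE 0.07, 95% interval -0.29 to 0.03).

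The estimates of the 3 RNAs of the domain ran from -0.13 to -0.10 on the log2 scale. Their sign was negative in each of the 17 other settings tried. The intervals bound a decrease at 0.861-fold for Meg3 and Rian and at 0.819-fold for Mirg.

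Mirg exons contain the hairpins of 4 microRNA genes whole, and Meg3 exons those of 2. Standard libraries of total RNA capture mature microRNAs poorly. The 6 hairpins were counted at 0 in all 6 libraries, although reads of the host can fall on the same bases. Snurf, a protein-coding gene with 100% of its exon bases inside other genes, was also at 0. The zeros are therefore no measure of the microRNAs. Mature microRNAs of the 4 hairpins in Mirg exons are printed from the RefSeq table to show what the transcript carries, with the seed (bases 2 to 8, which pair with targets) in capitals. No seed is shared among them.
miR-134-5p: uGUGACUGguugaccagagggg
miR-485-3p: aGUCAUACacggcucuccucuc
miR-377-3p: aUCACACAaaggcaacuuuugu
miR-410-3p: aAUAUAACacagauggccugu

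Elsewhere within the 3 RNAs, small RNA genes gave few counts. Of 4 microRNA genes inside Rian, 2 could be tested, as could 3 of 14 inside Mirg and 1 of 13 small nucleolar RNA genes inside Rian. edgeR called none of the 6, and none had an unadjusted p under 0.05 or was called by DESeq2 or limma-voom, in a comparison where edgeR called 6.39% of all genes tested. How the counting treated reads that fall on a host's exon and on a small RNA gene was not stated.

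**Figure D2:**
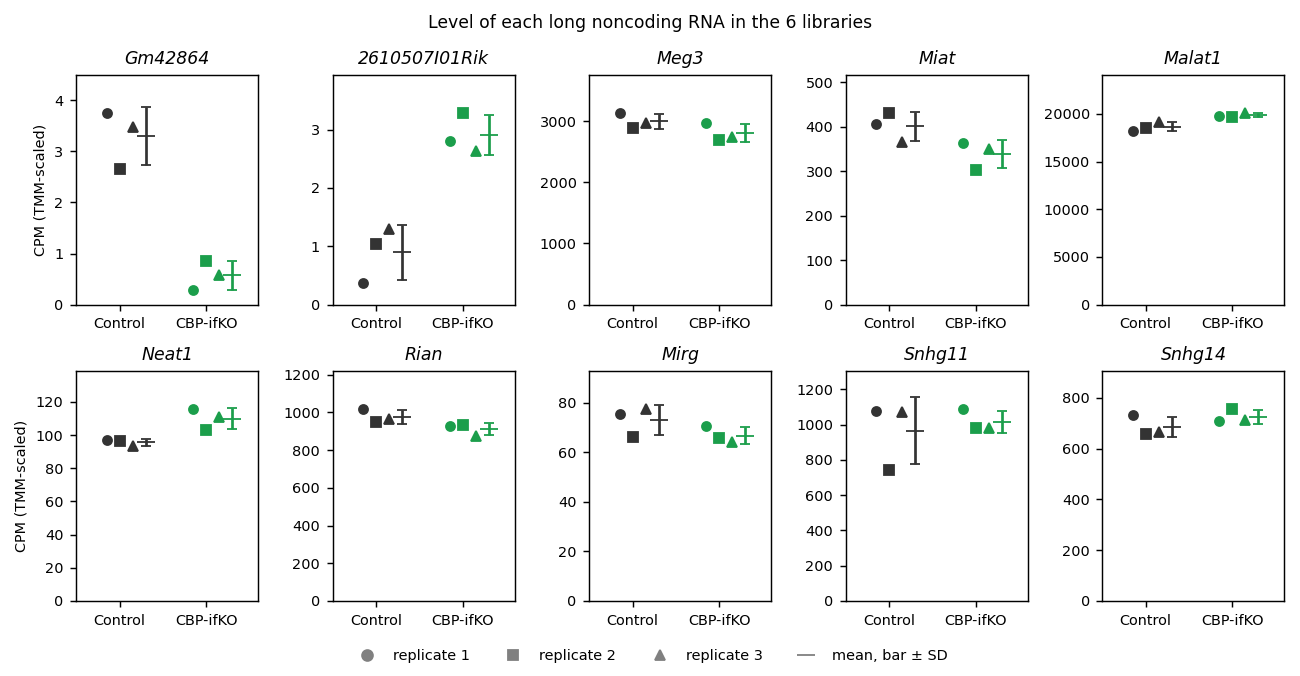
TMM-scaled CPM of each long noncoding RNA in the 6 libraries, every axis starting at 0; symbols are libraries, and the bar beside each group is the mean ± SD of 3. Groups are separate for Gm42864, 2610507I01Rik, Malat1, Neat1, Miat and Rian, and Control replicate 2 of Snhg11 lies at 745 CPM against 1072 and 1076 CPM in the other controls.

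Among protein-coding genes of the Dlk1-Dio3 domain and its borders, 7 were tested, of which 1 was called lower and none higher. That was 14.3%, beside 6.39% of all genes tested. The median log2 fold change was -0.09 beside -0.0033 for all genes. The gene called was Dio3, the deiodinase that inactivates thyroid hormone, at the far end of the domain, 738.1 kb from the Meg3 start. Dio3 was at 2.82, 2.66 and 2.68 CPM in controls and 1.45, 1.51 and 1.56 CPM in CBP-ifKOs, with a log2FC of -0.84 ± 0.24 SE and an edgeR adjusted p (padj) of 0.0473. The call was narrow: it held in 2 of 16 other settings, with adjusted p from 0.0328 to 0.152, and was lost when any 1 library was left out. Begain, a synaptic protein gene at the border, was called in its place without Control replicate 1 (log2FC -0.44, padj = 0.0181) and without a filter on low counts (padj = 0.0256), against -0.32 (padj = 0.103) with all libraries. Dlk1, a Notch-related ligand read from the paternal chromosome, had a log2FC of -0.09 ± 0.27 SE (padj = 0.895). Rtl1, whose coding strand lies opposite the maternal noncoding RNAs, had -0.14 ± 0.11 SE (padj = 0.537).

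**Figure D3:**
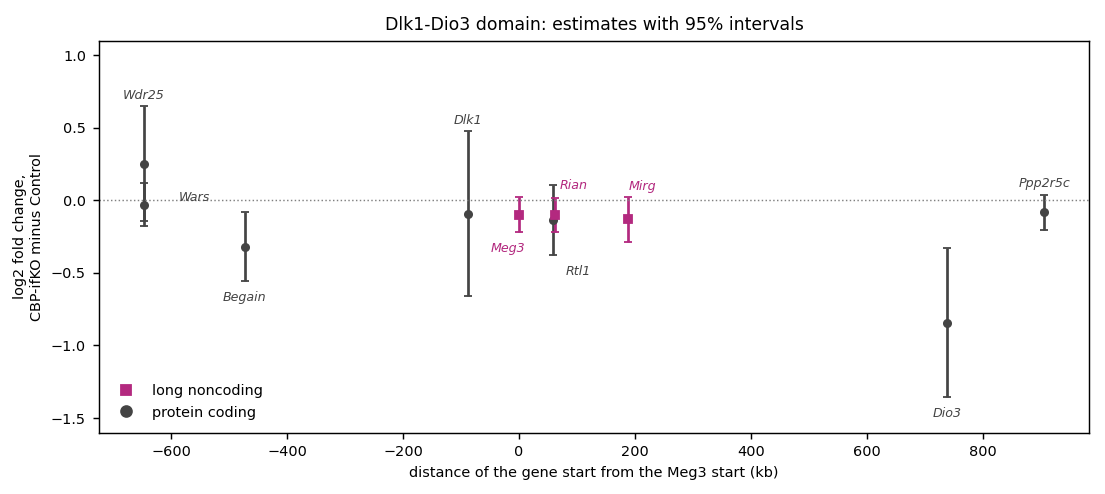
Log2 fold change (CBP-ifKO minus Control) with its 95% interval, against the distance of each gene's start from that of Meg3 in kb; squares are long noncoding RNAs and circles are protein-coding genes. Meg3, Rian and Mirg lie between -0.13 and -0.10, and Dio3 at -0.84.

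Snhg11 (ENSMUSG00000044349, chr2:158375638-158386145, plus strand) is a host of small nucleolar RNAs that is abundant in neurons. GENCODE M21 lists it as protein coding, so it is not counted among the annotated long noncoding genes below. Snhg11 was at 1076, 745 and 1072 CPM in controls and 1087, 980 and 981 CPM in CBP-ifKOs. Control replicate 2 stood below all the others, and the Control coefficient of variation of 19.7% was the highest among the 8 abundant RNAs. The log2 fold change was 0.08 (SE 0.10, 95% interval -0.14 to 0.29), and -0.07 without that library.

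Snhg14 (ENSMUSG00000100826, chr7:59307924-59975759, minus strand) spans 667836 bases of the Prader-Willi and Angelman domain, with 26093 exon bases in the deposited table. It reached 731, 657 and 667 CPM in controls and 708, 755 and 712 CPM in CBP-ifKOs, with overlap. The log2 fold change was 0.08 (SE 0.06, 95% interval -0.04 to 0.21), and 0.03 without replicate 2 of both groups. Of the 208 small nucleolar RNA genes inside it, 95 had a count in at least 1 library and 10 could be tested. edgeR, DESeq2 and limma-voom called 0 of these, and 0 had an unadjusted p under 0.05. Over all genes tested, edgeR called 6.39%.

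Ube3a, the ubiquitin ligase that the paternal Snhg14 transcript opposes, was at 523 ± 35.7 CPM in controls and 565 ± 33.0 CPM in CBP-ifKOs (SD, n = 3; log2FC 0.11 ± 0.06 SE, padj = 0.334). Snhg14 shares 6.91% of its exon bases with Ube3a on the other strand. Of 17 genes listed for the domain and its borders, 13 were tested, and 1 was called lower and none higher. That was 7.69%, beside 6.39% of all genes tested. The median log2 fold change was -0.03. The gene called was Gabra5, a GABA-A receptor subunit prominent in hippocampus, at 203.4, 218.8 and 207.4 CPM in controls and 153.2, 155.3 and 141.0 CPM in CBP-ifKOs (log2FC -0.49 ± 0.06 SE, padj = 1.69e-04). Its call held in all 17 other settings. Snrpn, a splicing protein gene upstream of Snhg14, had a log2FC of -0.04 ± 0.06 SE (padj = 0.774).

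**Figure D4:**
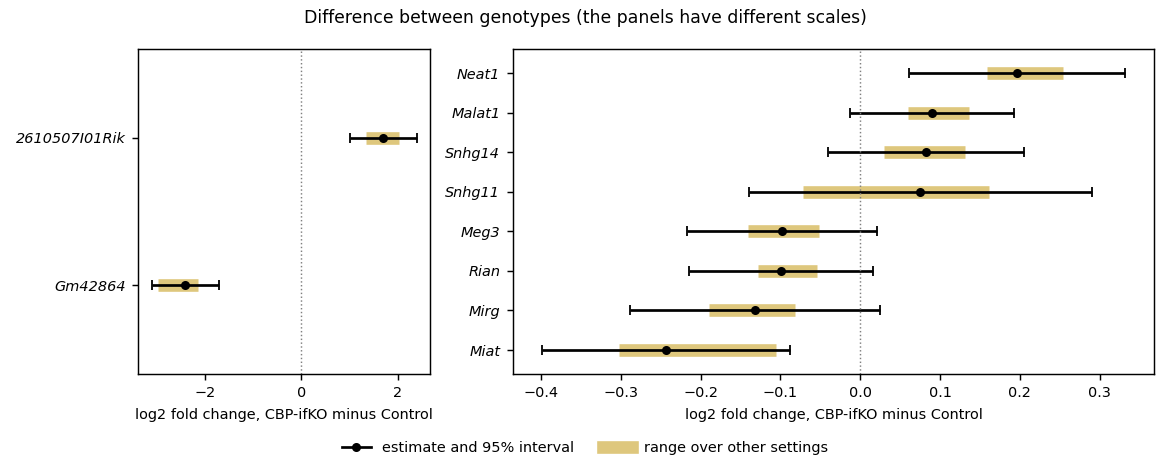
Log2 fold change of each long noncoding RNA (points, with 95% intervals not adjusted for the number of genes) and its range over the other settings tried (yellow bars); the 2 panels have different scales. Gm42864 and 2610507I01Rik lie beyond 1 in size, and the other 8 RNAs lie between -0.24 and 0.20.

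Across the 10 genes, 5 estimates were above 0 and 5 below, with a median log2 fold change of -0.01. Gm42864 and 2610507I01Rik were past the edgeR threshold (2 of 10, 1 in each direction), beside background shares over all 17981 genes of 6.39% in both directions, 1.4% higher and 4.99% lower. DESeq2, for which the share was 6.17%, gave neither of them an adjusted p. Libraries of the genotypes did not overlap for 6 of the 10 genes, beside 25.6% of all genes tested. The rule used this comparison, and nothing is read from either count. For the 8 abundant RNAs the 95% intervals ran from -0.40 at the lowest to 0.33 at the highest, so that these libraries bound each difference well within 2-fold. The median absolute log2 fold change was 0.14 over all genes and 0.20 over long noncoding genes tested.

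Genes beside the RNAs were selected by position alone, as those with a gene body within 100000 bases. Of 64 tested, 1 was called, in a comparison that called 6.39% of all genes. Around Gm42864, 2 genes were tested. Sez6l, a neuronal membrane protein gene, had a log2FC of -0.22 ± 0.08 SE (padj = 0.132), and Myo18b, a myosin gene, had 0.07 ± 0.24 SE (padj = 0.920).

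Around 2610507I01Rik, 7 genes were tested and edgeR called none, with 0 at an unadjusted p under 0.05 and 0 calls by DESeq2 or limma-voom. Mrpl55, which starts beside it, was at 9.99 ± 2.39 CPM in controls and 11.7 ± 0.411 CPM in CBP-ifKOs (SD, n = 3; log2FC 0.22 ± 0.15 SE, padj = 0.441). Arf1, Guk1, 2310033P09Rik and Iba57 had log2 fold changes of -0.14, 0.03, 0.10 and 0.23. Within 500000 bases, 1 gene was called near each RNA. That was 1 of 15 tested around Gm42864 (6.67%) and 1 of 25 around 2610507I01Rik (4%), beside 6.39% of all genes tested. The genes called were 2900026A02Rik on the side of Gm42864 (log2FC -0.62 ± 0.09 SE, padj = 6.06e-04) and Wnt9a, a Wnt ligand, on the side of 2610507I01Rik (-1.44 ± 0.24 SE, padj = 0.00134).

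The neighbor called within 100000 bases was Ehbp1l1, a regulator of vesicle traffic on the side of Malat1 that lies away from Neat1. Ehbp1l1 was at 13.8, 15.2 and 13.6 CPM in controls and 10.2, 7.89 and 8.89 CPM in CBP-ifKOs (log2FC -0.67 ± 0.13 SE, padj = 0.00461), and the call held in all 17 other settings.

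Proteins that work with these RNAs were taken from lists of their compartments. Of 20 paraspeckle proteins, none was called higher and 1 lower (5%), beside 6.39% of all genes tested. Estimates were above 0 for 15 of 20, with a median log2 fold change of 0.09 beside -0.0033 for all genes. Whether this list moved as a whole was not tested. The gene called was Ss18l1, a neuronal subunit of chromatin remodeling complexes, at 71.6 ± 4.57 CPM in controls and 57.5 ± 1.76 CPM in CBP-ifKOs (SD, n = 3; log2FC -0.32 ± 0.07 SE, padj = 0.0112). Its padj was 0.0599 when CBP-ifKO replicate 2 was left out and 0.0852 when replicate 3 was, in a range from 0.00117 to 0.0852 over 17 settings. Sfpq and Nono, core proteins of the paraspeckle, had log2 fold changes of 0.13 and 0.01 (edgeR adjusted p 0.211 and 0.959).

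Of 21 nuclear speckle proteins and splicing factors, 1 was called higher and none lower (4.76%), beside 6.39% of all genes tested. Estimates were above 0 for 17 of 21, with a median of 0.08. Whether this list moved as a whole was not tested. Srsf11, a splicing factor of the SR family, was at 139 ± 10.6 CPM in controls and 164 ± 7.78 CPM in CBP-ifKOs (SD, n = 3; log2FC 0.24 ± 0.07 SE, padj = 0.0406). It was lost without Control replicate 2 (adjusted p 0.0686), Control replicate 3 (0.126), or any 1 of the CBP-ifKO libraries, the highest being 0.153 without CBP-ifKO replicate 2, in a range from 0.00422 to 0.153 over 17 settings. Its log2FC was 0.15 without replicate 2 of both groups. Celf3, a splicing factor described as a partner of Miat, had a log2FC of -0.33 ± 0.10 SE (padj = 0.0598), which was -0.21 without Control replicate 2 (padj = 0.183), -0.11 without replicate 2 of both groups (padj = 0.447) and -0.21 with offsets for GC content and length. Rn7sk, a nuclear RNA that restrains the elongation of transcription, was lower at 10400 ± 391 CPM in CBP-ifKO against 12100 ± 766 CPM in Control (log2FC -0.22 ± 0.06 SE, padj = 0.0280). That call held in 10 of 17 other settings, with adjusted p from 2.94e-04 to 0.323, the highest with offsets for GC content and length (log2FC -0.10), and was lost without Control replicate 3 or any 1 of the CBP-ifKO libraries.

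Other host genes of small nucleolar RNAs gave no edgeR call in 13 tested, beside 6.39% of all genes tested. Of the 13, 1 had an unadjusted p under 0.05, and DESeq2 and limma-voom called 0. The median log2 fold change was 0.07. The most abundant, Gas5, was at 112 CPM in controls and 111 CPM in CBP-ifKOs (log2FC -0.02 ± 0.07 SE, padj = 0.937).

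Long noncoding genes as an annotated class comprised 9914 genes of the table, of which 1863 were tested. edgeR called 40 of them (2.15%), 14 higher (0.751%) and 26 lower (1.4%) in CBP-ifKO, where 1088 of 13757 protein-coding genes were called (7.91%). Without the 9 RNAs described here that belong to the class, 38 of 1854 were called (2.05%). The difference between the classes was not tested. A share called depends on the counts per gene as well as on the size of change. The median absolute log2 fold change was 0.20 for long noncoding and 0.13 for protein-coding genes tested, with 39.24% and 23.98% beyond 0.25. Counting error also widens estimates of genes with few counts. Neither measure therefore shows whether changes in the class were smaller or larger. DESeq2 called 17 long noncoding genes, and the edgeR count was 17 when Control replicate 3 was left out and 20 when either CBP-ifKO replicate 2 or replicate 3 was. With libraries scaled by their totals only, 25 were higher and 19 lower. The largest decreases that met the naming rule were 4921539H07Rik (log2FC -1.68 ± 0.20 SE, padj = 1.19e-04), Gm49542 (-1.61), Gm26644 (-1.39), Gm44724 (-1.32) and 1700007F19Rik (-1.27). 4921539H07Rik and 1700007F19Rik lie on opposite strands of chromosome 3 and share exon bases, 4.95% of the former and 13% of the latter.

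The largest increases were A430108G06Rik (log2FC 1.39 ± 0.37 SE, padj = 0.0310), Gm47806 (1.34), AC090479.2 (0.97), Gm47815 (0.89) and B130055M24Rik (0.67 ± 0.12 SE, padj = 0.00375). Gm42864 and 2610507I01Rik lay outside the range of all of these, but they were chosen with this comparison known, so nothing is read from it. Of these 10 genes, those called in every setting that gave an adjusted p were 4921539H07Rik, Gm49542, Gm26644 and B130055M24Rik. The other 6 lost their call without CBP-ifKO replicate 2, among other settings, with adjusted p from 0.0753 to 0.154 there. B130055M24Rik shares 25.4% of its exon bases with Zfp689 on the other strand, and AC090479.2 shares 17% with Rbbp8.

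**Figure D5:**
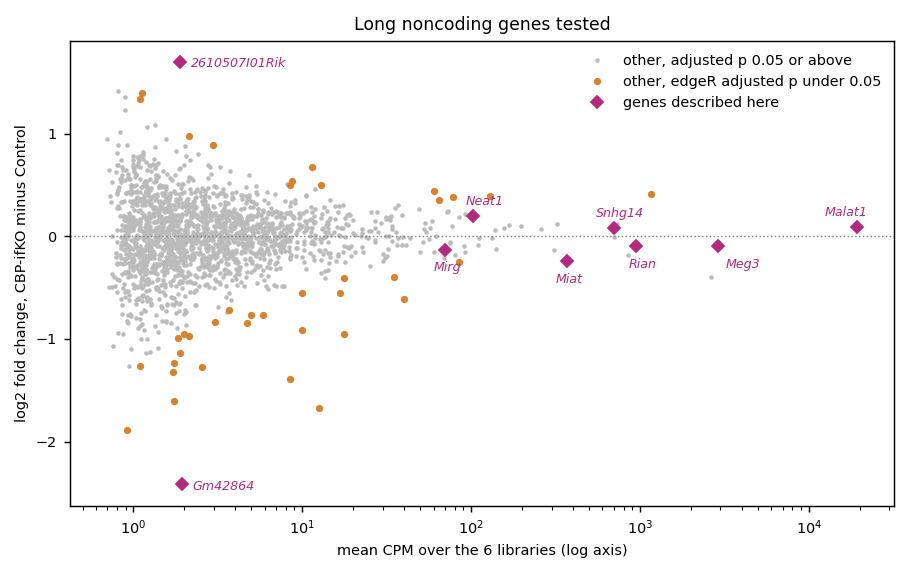
Log2 fold change (CBP-ifKO minus Control) against mean CPM (log axis) for the 1863 long noncoding genes tested; orange points are other genes with an edgeR adjusted p under 0.05, and diamonds are 9 of the 10 RNAs described here, Snhg11 being annotated as protein coding. Gm42864 and 2610507I01Rik lie at the lower and upper limits of the plot near 2 CPM, and the abundant RNAs lie near 0.

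Named long noncoding RNAs of brain gave 2 higher and 1 lower call among 25 tested, with a median log2 fold change of -0.01. Firre, an X-linked nuclear RNA, was at 68.0, 67.6 and 68.5 CPM in controls and 84.7, 89.5 and 92.2 CPM in CBP-ifKOs (log2FC 0.39 ± 0.06 SE, padj = 0.00158). Ftx, an X-linked RNA of the X-inactivation center, was at 121.2, 105.8 and 111.1 CPM in controls and 139.4, 155.1 and 149.4 CPM in CBP-ifKOs (0.39 ± 0.07 SE, padj = 0.00193). Both calls held in all 17 other settings. Pantr1, an RNA next to the neuronal gene Pou3f3, was lower, at 39.7 ± 2.77 CPM in controls and 29.9 ± 4.76 CPM in CBP-ifKOs (SD, n = 3; -0.40 ± 0.10 SE, padj = 0.0294). The Pantr1 call held in 12 of 17 other settings, with adjusted p from 4.32e-04 to 0.176, the highest without CBP-ifKO replicate 3, and was also lost without CBP-ifKO replicate 1 or Control replicates 2 or 3.

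The genes whose log2 CPM followed Gm42864 most closely over the 6 libraries were C630043F03Rik (Pearson's r = 0.997), Lefty1 (0.994) and March1 (0.993), all lower in CBP-ifKO, at log2 fold changes of -0.77, -0.86 and -0.45. Those closest to 2610507I01Rik were Me2 (0.991), Btbd3 (0.991) and Haus2 (0.990), with log2 fold changes of 0.31, 0.04 and 0.26. The 6 points are the same libraries in 2 genotype groups, and among 17981 genes some values near 1 arise from this alone, so the correlations are a description.

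Genes listed as markers of cell types were read from the same libraries. Whether each is made by its listed type alone was not tested, so a call does not place a change in that type. Over all genes tested, edgeR called 6.39%. Of 10 excitatory neuron markers, 3 were called lower (Nrgn, Rgs4 and Rbfox3, the last at a log2FC of -0.46, and -0.28 with offsets for GC content and length) and none higher, and the summed level of the list was 4730 to 5070 CPM in controls and 4320 to 4940 CPM in CBP-ifKOs. Estimates were below 0 for 8 of the 10 and above 0 for Camk2a (0.09) and Neurod2 (0.20), and Slc17a7 had -0.04. Of 10 interneuron markers, 3 were called lower (Sst, Cck and Slc32a1) and none higher, and the sum was 827 to 898 CPM in controls and 735 to 798 CPM in CBP-ifKOs. Estimates were below 0 for 8 of the 10, with Gad1 at -0.06 and Gad2 at -0.08, and above 0 for Npy (0.11) and Vip (0.16). The Slc32a1 call held in 6 of 17 other settings and was lost without any 1 library other than CBP-ifKO replicate 1, under DESeq2 (adjusted p 0.111) and with offsets for GC content and length (log2FC -0.15 against -0.38, adjusted p 0.476). No astrocyte, oligodendrocyte or microglia marker of 10 each and none of 5 choroid plexus markers tested was called (edgeR), with 1, 3, 3 and 2 of them at an unadjusted p under 0.05, and DESeq2 and limma-voom called 0 as well. Of 10 endothelial and mural markers, Vtn was called lower, a call lost without CBP-ifKO replicate 2 or 3 (log2FC -0.40, and -0.26 without replicate 2 of both groups). The part of such shifts in the levels of the 10 RNAs was not tested.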

How the data were processed

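Hippocampal total RNA was sequenced in 6 libraries, 3 Control and 3 CBP-ifKO, single-end at 50 bp. The sample titles gave the group and the number of each replicate. Per the submitters' notes and the study's methods, the authors trimmed reads with Trim Galore (version 0.6.4, with FastQC 0.11.8), aligned them to GRCm38 with STAR 2.6.1, kept those with a mapping quality over 10 and counted them over Ensembl 99 exons with Rsubread. Whether strand was used was not stated. The deposited values are unnormalized counts of reads per gene, beside the exon length of each gene. The authors' own tests used DESeq2 1.30.1 and were not used here.

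Identifiers were matched to GENCODE M21 (55230 of 55471, 99.57%). Counts were scaled by TMM and tested in R 4.3.3 with the quasi-likelihood F-test of edgeR 4.0.16 (filterByExpr, min.count 10, min.total.count 15), without covariates, and adjusted by Benjamini-Hochberg over 17981 genes at a threshold of 0.05. CPM use the same scaling, and the SE of a log2 fold change is its size over the square root of F. The common coefficient of variation between libraries was 6.81%, and at a few CPM counting error is larger. Alternatives were DESeq2 1.42.0, limma-voom (limma 3.58.1), other scalings and filters, offsets for GC content and length, the replicate number as a block, and each library left out. On simulated counts for 17981 genes of this comparison, with 200 genes changed by 1 on the log2 scale, edgeR recovered 84% and 8.20% of its 183 calls were unchanged genes.

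The members and lists were chosen with earlier results of these data known. The naming rule took neighbors of Gm42864 and 2610507I01Rik within 100000 bases, called genes of each list, and the 5 largest changes in each direction among other long noncoding genes called whose groups were separate and whose mean reached 1 CPM. Genes named beside these for their role at an RNA's locus or compartment, Rn7sk, and genes called within 500000 bases were chosen after their values were seen. Promoter and microRNA sequences came from RefSeq tables for GRCm38.p6. Some neighboring genes are not reported here by name.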

Additional observations from a re-analysis of the deposited data

How the results depend on the processing

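Of the 10 RNAs, those past the threshold were Gm42864 and 2610507I01Rik in all 15 settings that gave them an adjusted p, Miat in 3 of 17 and Neat1 in 4 of 17. The RNAs were chosen with results of this comparison known, so these counts over the same libraries are no support for any of them. The sign changed for Snhg11 alone, to -0.07 without Control replicate 2. Over all genes the 1149 calls became 1839 when the replicate block was joined to GC and length offsets, 498 to 1326 with 1 library left out, and 252 higher with 897 lower became 514 with 667 under library totals only. Calls of long noncoding genes went from 40 to 64 without a filter, 17 under DESeq2, 76 with the replicate block plus offsets, and 17 to 50 with a library left out. Calls of neighbors (1) were 2 with RLE, upper-quartile factors, at least 10 counts in every library, limma-voom or the replicate block, 3 with the offsets, with or without the block, 4 under totals only, 5 without a filter, 6 within 500000 bases and 1 to 4 with a library left out. For the Dlk1-Dio3 list (1) there were 0 calls under upper-quartile factors, totals only, DESeq2, limma-voom, the block, the offsets and both, and 0 to 1 with a library left out, where the 1 was Begain and not Dio3. The paraspeckle list ran from 0 to 1 on leaving out libraries. Speckle proteins (1) gave 3 under totals only and without a filter, 2 with block and offsets, and 0 to 3 with a library left out. Named brain RNAs (3) gave 5 without a filter and with the block, and 9 with block and offsets. Outside mitochondrial genes the share of counts in the 10 RNAs was 2.65% in Control and 2.83% in CBP-ifKO. The cause of these shifts was not tested. Deviations of same-numbered libraries of the 2 groups correlated weakly (r = 0.0769, 0.0369 and 0.0022 across genes), beside -0.0852 to 0.0536 for other pairs of libraries. With 3 libraries per group and GC trends that differ between libraries, this cannot decide whether the numbers pair them. The block alone gave 1210 calls, and joined to the offsets it gave 1839, against 1098 with the offsets alone. Counts of 3 to 50 per library limit Gm42864 and 2610507I01Rik.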

Other observations

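Xist, the RNA that coats the inactive X chromosome, was named after its values were seen, beside Ftx and Firre. It reached 1116, 797 and 1092 CPM in Control and 1314, 1350 and 1323 CPM in CBP-ifKO, with no overlap (log2FC 0.41 ± 0.09 SE, edgeR padj = 0.0122). The call held in 15 of 17 other settings, with adjusted p from 3.01e-11 to 0.0584. It was lost under DESeq2, at 0.0584, and without CBP-ifKO replicate 2, at 0.0558. The lowest library was Control replicate 2, without which the log2FC was 0.28 (edgeR padj = 0.00138), and it was 0.26 without replicate 2 of both groups. Xist shares 11.5% of its exon bases with genes on the other strand, Tsix among them.

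Bc1, a short RNA made by neurons and carried into dendrites, was also chosen after its values were seen. It was at 1970, 3969 and 3015 CPM in Control and 2457, 2577 and 1783 CPM in CBP-ifKO, a spread among controls wider than the difference between the groups (log2FC -0.39 ± 0.17 SE, edgeR padj = 0.194).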
